A study of Mus musculus with 6 samples.

Results

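Gdf15 encodes growth differentiation factor 15, a secreted stress cytokine of the transforming growth factor beta (TGF-beta) superfamily. It was taken as the row of that symbol in the deposited expression table, 1 of 24394 entries with a gene symbol, and is described here in each library and beside all other genes. RNA was sequenced from the submandibular gland, the mouse salivary gland under the jaw, of wild type C57BL/6 mice. The groups were untreated control glands (time 0), glands collected 6 h after 5 Gy of ionizing radiation and glands collected 24 h after 5 Gy, with 2 libraries in each of the 3 groups. All groups shared the strain and the genotype. Nothing in the labels ties a library to its own animal, and each p-value therefore measures only the spread between these samples, which may be technical. Age, sex and the hour of collection were not given in the sources used here. Values are FPKM, a fragment count scaled for transcript length and library depth, as the authors deposited them.

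As background, most tissues transcribe Gdf15 at a low level, and DNA damage, mitochondrial stress or unfolded protein can raise it strongly. The tumour suppressor p53 is a known activator of the gene, as are ATF4 and CHOP (encoded by Ddit3), the transcription factors of the integrated stress response. The protein is cleaved by furin-type proteases, circulates as a hormone and lowers appetite through GFRAL, a receptor of hindbrain neurons that signals with the kinase RET.

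In GRCm38 (mm10), Gdf15 (ENSMUSG00000038508.7) lies on the minus strand of chromosome 8, from 70629393 to 70632456, and is annotated as protein coding with no overlapping annotated gene. Transcript Gdf15-201 has 2 exons and 1545 nt and transcript Gdf15-202 has 3 exons and 1380 nt. Both carry the same coding sequence of 909 nt. The deposited value is 1 per gene, so the share of each transcript is unknown. The stretch before the more distal of the 2 annotated starts is shown because it is the sequence next to a gene whose RNA changed after irradiation. It was read from RefSeq (GRCm38.p6, chr8:70632471-70632706, minus strand, 236 bases, 55.1% G or C), 5′ to 3′.
Gdf15 upstream stretch: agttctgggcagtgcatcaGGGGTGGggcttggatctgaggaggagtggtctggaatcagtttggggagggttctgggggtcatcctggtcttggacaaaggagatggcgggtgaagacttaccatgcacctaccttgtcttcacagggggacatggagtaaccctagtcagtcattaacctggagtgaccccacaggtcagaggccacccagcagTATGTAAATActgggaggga
The capitals mark 2 features. One is a box of the kind that Krüppel-like factors bind, which reads CCACCCC on the other strand. The other is a pair of overlapping matches to the letters TANATA, which resemble the core promoter element named for such a run. TAAATA matches on the strand shown, and TATGTA matches on the other strand, where it reads TACATA. As printed, TATGTA and TAAATA begin 34 and 30 bases before the start at 70632456. The stretch shown stops short of that start, at 70632471.

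Motifs were searched on both strands in windows of 300 bases, 250 before and 50 after each annotated start. The letters CCACCCC occurred in 15.12% and TANATA in 27.18% of the 32851 windows of all genes, and both motifs were chosen after the sequence was seen. Neither of the 2 Gdf15 windows held a p53 half-site, which occurred in 8.36% of all windows and in 12 of the 49 windows of p53 target genes. The same held for the AP-1 site TGANTCA (7.81% of all windows), the half-site TGACG (20.81%), the C/EBP-ATF element TGATGNAA (3.97%), the GC box GGGCGG (35.66%) and TATAAA (13.62%). The E-box CACGTG (7.15%) had a match in the proximal window alone. A match is a run of letters and not a measured binding site, and its lack says only that these letters are not in these windows.

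Several features of the libraries touch the results. In the control and 6 h columns, every one of 4173 low entries lay on whole-read steps (relative tolerance 1e-06), which put these 4 libraries at 11830000 to 12580000 reads and let reads per gene be recovered. The 24 h columns have a different form, with 100% and 99.99% of values written to at most 6 digits, against 34.38% to 35.45% in the other columns. They were not searched for such steps, so their depth is unknown here. The form of quantification and the 24 h time point cannot be told apart. The summed FPKM was 677320 and 1203218 in the 24 h libraries, against 866233 to 900281 in the other 4. Of the 10 marker genes of acini, the saliva-secreting units, Aqp5, Lpo, Bhlha15, Pip and Slc12a2 were at 75.3 FPKM or more in every library, while the closely related Dcpp1, Dcpp2 and Dcpp3 varied between libraries. Dcpp2 had 1.33 and 14822 FPKM in control glands, 10543 and 16795 FPKM by 6 h and 148 and 12942 FPKM by 24 h. Smgc, also an acinar marker, had 0 and 251, 304 and 541, and 0.499 and 27.6 FPKM at the same times. Muc19, of the list for parotid and sublingual gland, had 0.0178 and 178, 139 and 160, and 2.25 and 149 FPKM. The remaining acinar marker, Chrm3, was at 4.64 to 6.40 FPKM throughout. Control replicate 1 was also low in Bpifa2 (5.31 against 21486 FPKM in control replicate 2) and Amy1 (18.4 against 2945 FPKM), from the list for parotid and sublingual gland. Replicate 1 was the lower at the other times too, for Bpifa2 (1400 against 31279 FPKM at 6 h, 5506 against 51025 FPKM at 24 h) and Amy1 (24.4 against 5662 FPKM, 1612 against 17032 FPKM). Prol1 of the same list went the other way in control (47394 against 41258 FPKM). In control replicate 1 the 7 adipocyte markers summed to 31.2 FPKM, against 570 FPKM in control replicate 2, and these also differed between the 6 h libraries, at 56.6 and 422 FPKM. The 4 epidermal markers in the table summed to 17.05 and 199 FPKM at 24 h, against 0.994 to 1.66 FPKM in the control and 6 h libraries. Results were therefore also computed without control replicate 1 and 24 h replicate 2, a choice made after seeing the data.

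Gdf15 RNA was scarce in unirradiated glands, abundant at 6 h and intermediate at 24 h. The control libraries gave 0.449 and 0.546 FPKM, the 6 h libraries 60.7 and 81.2 FPKM and the 24 h libraries 21.4 and 21.9 FPKM. The 3 groups did not overlap. With 2 libraries in each group this was common, as 44.3% of all genes tested did not overlap between 6 h and control. The share was 66.5% between 24 h and control and 70.7% between 24 h and 6 h. Among the 24394 entries, the levels of Gdf15 ranked 12452nd and 12477th in the control libraries, near the middle of the table, 541st and 426th at 6 h, and 2326th and 2284th at 24 h. Only 15743 and 16003 entries were above 0 in the control libraries, so Gdf15 lay in the lower part of the entries detected there. At 6 h, 97.8% and 98.3% of entries were below Gdf15, so it was among the more abundant messages of a gland dominated by secretory transcripts.

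**Figure D1:**
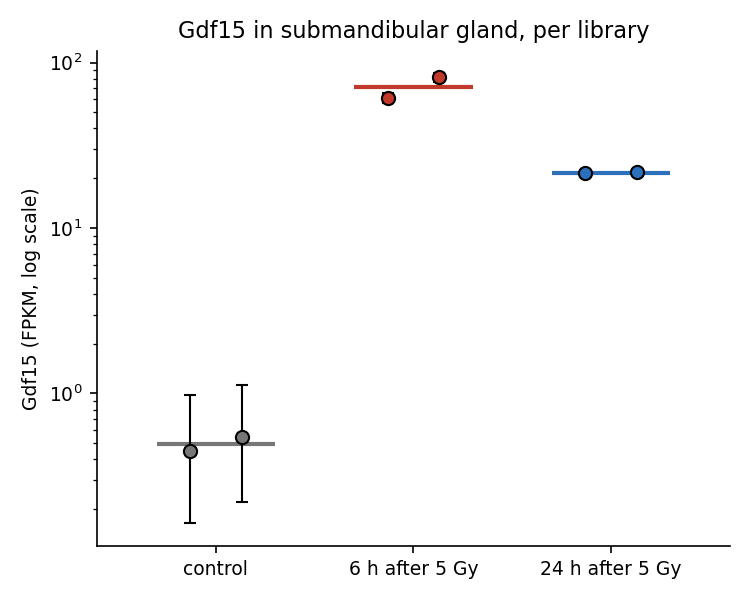
Gdf15 level in FPKM (log axis) in each of the 6 libraries by group, with a line at each group mean and, for control and 6 h, bars for the 95% Poisson interval from the recovered reads. The 6 h libraries sit at 60.7 and 81.2 FPKM and the 24 h libraries at 21.4 and 21.9 FPKM, all above the control libraries at 0.449 and 0.546 FPKM.

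The recovered reads show how much sequence stood behind these values. Gdf15 had 798 and 1107 reads in the 6 h libraries, against 6 and 7 reads in the control libraries. In FPKM, the exact 95% Poisson intervals were 56.6 to 65.1 and 76.5 to 86.1 at 6 h, against 0.165 to 0.976 and 0.220 to 1.13 in control. The intervals of the control libraries overlapped and those of the 6 h libraries did not. Summed over libraries, 1905 reads at 6 h and 13 in control gave a 143-fold higher rate of reads (95% interval 83.6-fold to 270-fold). These intervals cover counting error only. The size of the fold is thus limited by the few control reads, and the lowest 6 h value was still 111-fold above the highest control value.

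At 6 h against control, Gdf15 rose by 5.57 ± 0.15 (SE) on the log2(FPKM + 1) scale, with an adjusted p of 0.000104 (limma, Benjamini-Hochberg over all 11674 genes tested). Adding 1 FPKM shrinks the change of a gene this low in control, and the plain ratio of the means was 143. Of all genes tested, 1.01% passed in either direction at 6 h and 0.694% passed higher (adjusted p under 0.05). Gdf15 entered the test, which required a mean of 1 FPKM over the 6 libraries, through its irradiated libraries, since both control values were under 1 FPKM. It had the smallest p of all genes and the highest log2 fold change of the 81 genes that passed higher. By log2 fold change alone its rank was 3 of 11674, below Dcpp2 and BC048546. Dcpp2, a secreted protein gene of salivary acini with near-identical copies, had 10543 and 16795 FPKM at 6 h, against 1.33 and 14822 FPKM in control. BC048546 had 2284 and 3101 FPKM at 6 h, against 0.207 and 2331 FPKM in control. Both genes were lowest in control replicate 1, as were the related Dcpp1 and Dcpp3. Their groups overlapped, and neither passed (limma adjusted p = 0.546 and 0.532). Without control replicate 1, Gdf15 ranked first. It ranked 11th without control replicate 2 and 6th without 6 h replicate 1.

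The 6 h call of Gdf15 was recomputed under other settings. It held in 16 of 16 alternative settings, with log2 fold changes from 5.37 to 6.88 and limma adjusted p from 9e-06 to 0.00816. Without control replicate 1 and 24 h replicate 2, the log2 fold change was 5.525 and the limma adjusted p 0.118, although the unadjusted p was 5.14e-05. In that reduced set no gene passed in this comparison, and 1270 of 11547 had an unadjusted p under 0.05.

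At 24 h against the same control libraries, Gdf15 was higher by 3.92 ± 0.15 on the log2(FPKM + 1) scale (limma adjusted p = 3.6e-05), and the ratio of means was 43.5. The call held in 16 of 16 alternative settings and without control replicate 1 and 24 h replicate 2 (3.86, limma adjusted p = 0.0241). Of all genes tested, 25.3% passed at 24 h, 21% higher and 4.3% lower, or 2451 and 502 genes. With median-of-ratios or quantile scaling the split was 1091 and 970 or 987 and 942 genes, and the median change over the whole table was -0.03 or -0.04 on the log2 scale, against 0.20 as deposited. Gdf15 ranked 43rd of 11674 by log2 fold change and 37th of the 2451 that passed higher. Its rank was 68 without 24 h replicate 1 and 70 with a pseudocount of 0.1.

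The genes ranked next to Gdf15 at 24 h had patterns unlike its own. Directly above were Krt1, a keratin of skin, and Krtdap, a keratinocyte differentiation gene. Krtdap had 20.5 and 65.9 FPKM at 24 h, against 0.889 and 2.04 FPKM in control, which followed the summed epidermal markers. Below were Cox16, a factor of cytochrome oxidase assembly, and Glrx3, a glutaredoxin. Glrx3 had 0.491 and 0.256 FPKM in control glands, 0.350 and 0.674 FPKM by 6 h and 15.4 and 15.8 FPKM by 24 h. Gdf15 differed from these genes in that its 6 h libraries, which are in the same form as the control libraries, were also high.

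Between the irradiated times, Gdf15 was lower at 24 h. The means were 21.6 ± 0.325 FPKM at 24 h and 70.9 ± 14.5 FPKM at 6 h (SD, n = 2 each), so the 24 h mean was 30.5% of the 6 h mean. The log2 difference was -1.65 ± 0.15 (limma adjusted p = 0.000856), and it held in 16 of 16 alternative settings (-1.97 to -1.45). Of all genes tested, 27.7% passed between these times, 4.31% lower and 23.4% higher, or 503 and 2734 genes, a split that was 1106 and 1249 or 1047 and 1148 with the other scalings. Gdf15 ranked 201st from the lowest log2 fold change and 167th among the 503. Its neighbours in that rank include Bud31, a splicing factor gene, and Acat3, an acetyl-CoA acetyltransferase gene. Bud31 had 50.8 and 53.1 FPKM in control glands, 54.7 and 55.9 FPKM by 6 h and 15.3 and 18.9 FPKM by 24 h. Acat3 had 14.8 and 14.1 FPKM in control glands, 13.5 and 15.4 FPKM by 6 h and 3.93 and 3.79 FPKM by 24 h. These 2 neighbours were near their control level at 6 h, whereas Gdf15 was not.

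**Figure D2:**
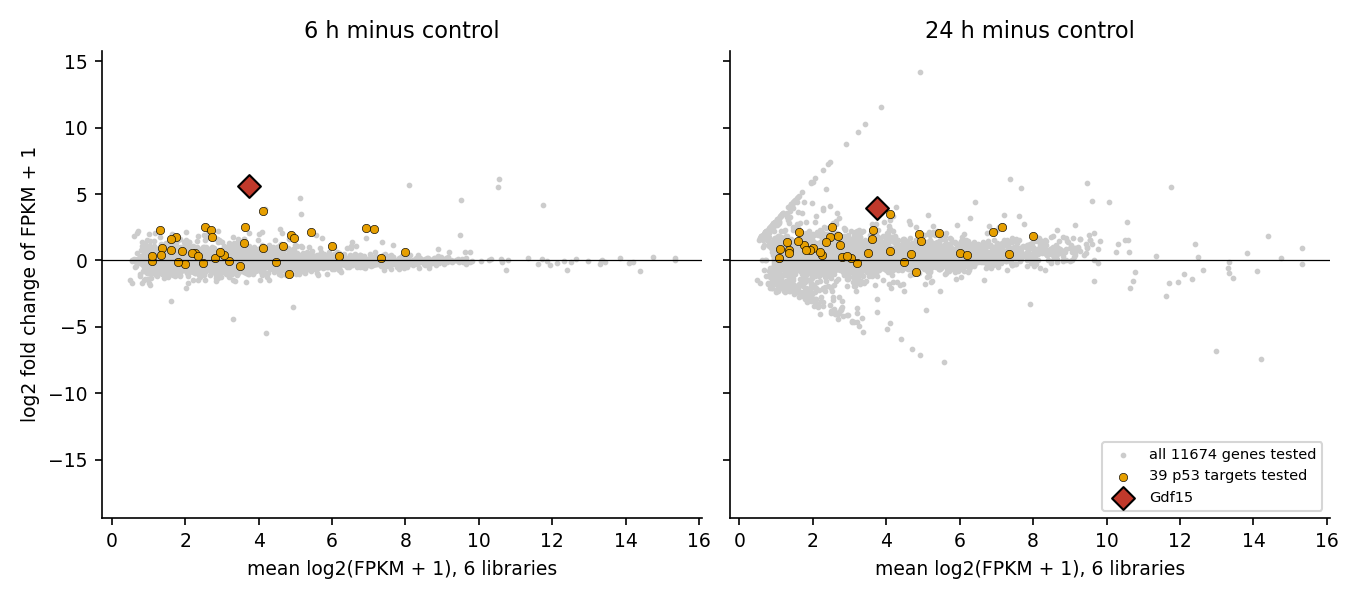
Log2 fold change of FPKM + 1 against mean log2(FPKM + 1) over the 6 libraries for 11674 genes tested (grey), 39 p53 targets (orange) and Gdf15 (red diamond), at 6 h minus control (left) and 24 h minus control (right). Gdf15 stands at 5.57 at 6 h and 3.92 at 24 h, above every p53 target tested in both panels.

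The spread between replicates of Gdf15 differed among the 3 groups. Its replicates differed by 0.09 in control, 0.41 at 6 h and 0.03 at 24 h on the log2(FPKM + 1) scale. For comparison, the median difference was 0.22 over 685 genes at 0.398 to 0.622 FPKM in control, 0.14 over 246 genes at 56.8 to 88.7 FPKM at 6 h, and 0.13 over 1054 genes at 17.3 to 27.0 FPKM at 24 h. At 6 h, 93.5% of these genes of like level differed less than Gdf15. As deposited, its 6 h libraries thus stood further apart than most genes of that abundance, while its 24 h libraries were closer than most. The closeness at 24 h depends on the scale, since Gdf15 made up 31.6 and 18.2 ppm of the summed FPKM of these libraries. The standard error of Gdf15, 0.15, was close to the median over all genes tested, 0.14.

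The profiles most like that of Gdf15 in size and shape over the 6 libraries belonged to Dbp, Cdkn1a, Eda2r, Aen and Ephx1. Likeness was the root mean square difference of log2(FPKM + 1) after each gene's control mean was taken off, which was 1.08 for Dbp and 2.04 for Ephx1. Dbp, a clock-controlled transcription factor, was at 2.51 and 2.42 FPKM before irradiation, 58.3 and 42.1 FPKM at 6 h and 31.1 and 35.8 FPKM by 24 h. Cdkn1a, the cell cycle inhibitor p21 and a p53 target, had 2.36 and 2.13, 39.7 and 44.7, and 35.6 and 36.2 FPKM at the same times. Even the nearest profile was therefore about 1 log2 unit away from Gdf15. The 24 h change of Gdf15 was 70.3% of its 6 h change on the log2 scale, against 85.6% for Dbp, 94.0% for Cdkn1a, 101% for Eda2r, 91.4% for Aen and 107% for Ephx1. Of these genes, only Gdf15 passed as lower at 24 h than at 6 h in limma (adjusted p = 0.0523 for Dbp and 0.1545 for Cdkn1a). Whether the genes differ from each other in that decline was not tested.

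**Figure D3:**
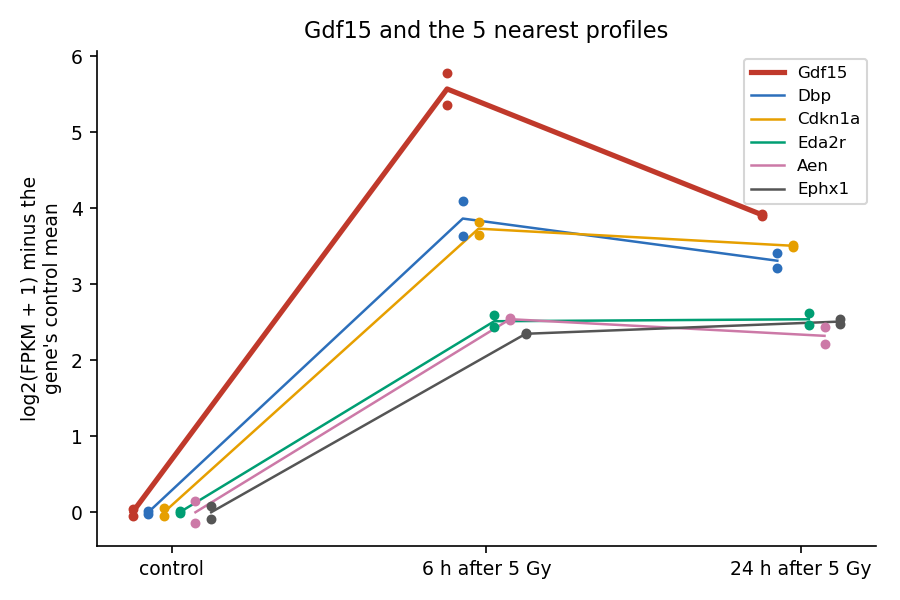
Log2(FPKM + 1) minus each gene's own control mean for Gdf15 and the 5 genes with the most similar profile, by group, with points for the libraries and lines through the group means. Gdf15 is highest at both times, and as deposited its 24 h change is 70.3% of its 6 h change, against 85.6% to 107% for the others.

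When each profile was divided by its own 6 h change, so that only shape counted, the nearest of 67 candidate genes that passed higher at 6 h were Lcn2, Ddias, Fam212b, Tnfrsf10b and Slc19a2. Their 24 h changes were 66.6%, 63.1%, 68.0%, 64.6% and 77.4% of their 6 h changes. Lcn2, the iron-binding secreted protein lipocalin 2, had 54.3 and 54.2 FPKM in control glands, 141 and 140 FPKM by 6 h and 99.9 and 105 FPKM by 24 h. Tnfrsf10b, a death receptor and p53 target, had 0.612 and 0.878, 4.88 and 4.75, and 2.94 and 2.65 FPKM. Ddias, a DNA damage-induced apoptosis suppressor, had 0.0235 and 0.0735, 3.08 and 3.71, and 1.76 and 1.43 FPKM. The choice by shape fixes a level at 24 h between those of control and 6 h, so these values are a description. The 6 h call of Lcn2, Ddias, Fam212b, Tnfrsf10b and Slc19a2 was lost in limma when either 6 h library was left out.

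The known activators of Gdf15 gave mixed values at the RNA level. Trp53, which encodes p53, had 11.4 and 9.05 FPKM in control glands, 12.98 and 9.66 FPKM by 6 h and 12.5 and 13.96 FPKM by 24 h, with changes of 0.13 and 0.35 that did not pass (limma adjusted p = 0.794 and 0.186). Transcript level says nothing of p53 protein, which is mainly controlled by its stability. Ddit3 had 27.9 and 20.6 FPKM at 6 h, against 11.1 and 9.61 FPKM in control. Its groups did not overlap, as in 44.3% of all genes tested, and its change of 1.14 ± 0.23 did not pass (limma adjusted p = 0.1005). Atf4, which is largely controlled at translation, had log2 fold changes of 0.37 at 6 h and 0.42 at 24 h that did not pass either. Nfe2l2, the oxidative stress factor NRF2, was the 1 of 14 listed upstream factors that passed at 6 h, higher, beside 0.694% of all genes. It had 56.1 and 55.3 FPKM at 6 h, against 28.1 and 25.04 FPKM in control (1.04 ± 0.11, limma adjusted p = 0.015), and the call was lost when any 1 of the 6 libraries was left out. At 24 h, 4 of 14 (28.6%) passed higher in limma, near the 21% of all genes, and 2 of 14, Cebpb and Nfe2l2, did so with the other scalings. Cebpb, a factor of the acute phase response, had 20.6 and 14.6 FPKM at 24 h, against 3.63 and 6.46 FPKM in control (1.64 ± 0.26, limma adjusted p = 0.00699), a call lost without 24 h replicate 1.

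Among 42 p53 target genes other than Gdf15, 39 were tested. At 6 h, 17 passed in limma, all higher, against 0.694% of all genes. At an unadjusted limma p under 0.05, 26 were higher and 2 lower, beside 1743 of all 11674 genes in either direction with median-of-ratios scaling. The median log2 fold change of the 39 was 0.73, against -0.02 over all genes. The largest changes were in Cdkn1a (3.73 ± 0.10), Aen, an apoptosis-linked nuclease (2.54 ± 0.14), Eda2r, a receptor of the tumour necrosis factor family (2.51 ± 0.12), and Ccng1, cyclin G1 (2.44 ± 0.09). All 39 members had a smaller log2 fold change than Gdf15 at 6 h and at 24 h. The count at 6 h was 11 without 24 h replicate 1 or without control replicate 1, 7 without 6 h replicate 1 and 6 without 6 h replicate 2. At 24 h, 28 of 39 passed, all higher, against 21% of all genes, with a median of 0.86 against 0.20 over all genes (1 lower at an unadjusted p under 0.05). With median-of-ratios and quantile scaling the split was 20 higher and 2 lower and 19 higher and 1 lower, and 17 passed higher without 24 h replicate 2. Without control replicate 1 and 24 h replicate 2 together, 11 passed higher at 24 h, while at 6 h no gene of the table passed. Between 24 h and 6 h, 7 of 39 (17.9%) passed higher and 5 (12.8%) lower, beside 23.4% and 4.31% of all genes, and the members that fell with Gdf15 were Mdm2, Gtse1, Ei24, Tnfrsf10b and Polk. With the other scalings that split was 5 higher and 13 lower or 4 higher and 11 lower.

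Of 40 genes of the integrated stress response, 37 were tested. At 6 h, 2 passed in limma, both higher, beside 0.694% of all genes. Both, Sesn2 and Ddit4, are in the p53 list as well. A further 14 were higher at an unadjusted p under 0.05 and did not pass, which gave 16 in all. Over all genes, 1743 of 11674 were under that unadjusted p in either direction with median-of-ratios scaling. Sesn2, a stress sensor that restrains growth signalling, had 11.1 and 10.9 FPKM at 6 h, against 1.80 and 1.24 FPKM in control (2.26 ± 0.14, limma adjusted p = 0.00296), and lost its call when either 6 h library was left out. Ddit4 lost its 6 h call when any 1 of the 6 libraries was left out. Psat1, an enzyme of serine synthesis, had 5.43 and 9.61 FPKM at 6 h, against 2.64 and 2.99 FPKM in control, and did not pass (1.12 ± 0.27, limma adjusted p = 0.154). Chac1, a glutathione-degrading enzyme, had a 6 h change of 1.03 ± 0.46 (SE) on the log2 scale, which missed the threshold (limma adjusted p = 0.378). At 24 h, 13 of 37 passed, all higher, beside 21% of all genes, and with either of the other scalings 5 passed higher and 1 lower. The median of the list was 0.39 at 6 h and 0.42 at 24 h, against -0.02 and 0.20 over all genes. The 24 h count was 5 without 24 h replicate 1, 6 without control replicate 1, and 8 without either 24 h replicate 2 or control replicate 2. Without control replicate 1 and 24 h replicate 2 together, 4 passed higher at 24 h.

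Within its own superfamily Gdf15 moved from a minor to a leading message. Ordered by mean FPKM, which is per length, it was 11th of 33 ligands in control, first at 6 h and second at 24 h. It made up 0.530% of the summed ligand FPKM in control, 39.6% at 6 h and 17.6% at 24 h, while the other 32 ligands together were at 93.3, 108 and 102 FPKM. Tgfb2, a secreted regulator of matrix and epithelium, was the most abundant other ligand, with 69.7 and 45.7 FPKM before irradiation, 66.6 and 53.8 FPKM at 6 h and 38.2 and 47.4 FPKM by 24 h. The lower 6 h library of Gdf15, at 60.7 FPKM, lay between the 6 h values of Tgfb2, so the order of the 2 genes at 6 h was not beyond their spread. At 24 h, Gdf15 was below Tgfb2 in both libraries. Of the other 32 ligands, 10 were tested and 7 were listed at 0 in all 6 libraries.

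Gdf5, a ligand of joint and bone development, was the 1 ligand of the 10 besides Gdf15 that passed at 6 h, when 0.694% of all genes passed higher. It had 13.3 and 14.5 FPKM at 6 h, against 3.36 and 3.36 FPKM in control (1.77 ± 0.18, limma adjusted p = 0.0122), and 16.4 and 11.1 FPKM at 24 h (1.73 ± 0.18, limma adjusted p = 0.00146). Its 6 h call was lost when any 1 control or 6 h library was left out, and the protein-coding model Gm15557 overlaps it on the opposite strand, so reads of the 2 cannot be told apart without strand. At 24 h, 3 of the 10 passed, all higher, namely Gdf5, Lefty1 and Gdf10, a share near the 21% of all genes, and all 3 held with both other scalings. Lefty1, an inhibitor of Nodal signalling, had 6.38 and 4.52 FPKM at 24 h, against 1.92 and 1.58 FPKM in control (1.22 ± 0.18). Gdf10, also called BMP3b, had 5.55 and 4.30 FPKM at 24 h, against 1.87 and 2.02 FPKM in control (0.9996 ± 0.15). Without control replicate 1 and 24 h replicate 2 together, Gdf5 kept its 24 h call, and Lefty1 and Gdf10 did not (limma adjusted p = 0.0521 and 0.0683).

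**Figure D4:**
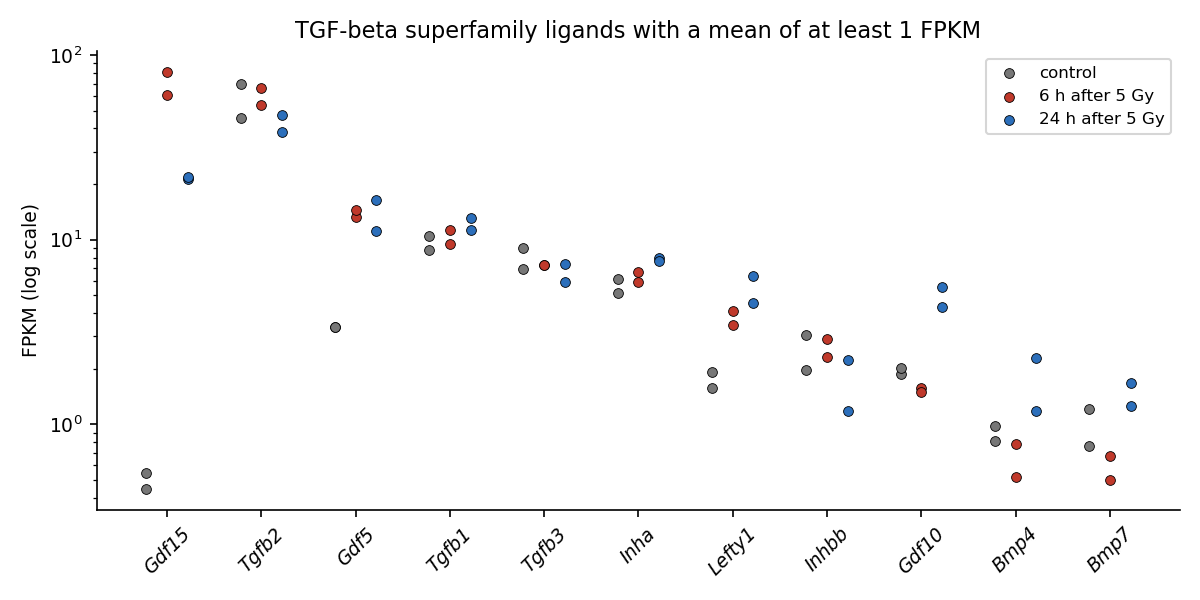
FPKM (log axis) of Gdf15 and the 10 other TGF-beta superfamily ligands with a mean of at least 1 FPKM, ordered by 6 h mean, with 2 points for each group (control grey, 6 h red, 24 h blue). Gdf15 is the 1 ligand with control values under 1 FPKM and both 6 h values over 60 FPKM, and Tgfb2 lies at 38.2 to 69.7 FPKM throughout.

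Gfral, the receptor gene, was listed at 0 in all 6 libraries. Its partner Ret was present, at 14.1 and 11.0 FPKM in control glands, 9.03 and 6.39 FPKM by 6 h and 17.4 and 11.0 FPKM by 24 h, and did not pass at either time (limma adjusted p = 0.317 and 0.692). Furin, a protease that matures TGF-beta superfamily precursors, had 20.1 and 16.9 FPKM in control glands, 17.5 and 17.4 FPKM by 6 h and 21.9 and 23.0 FPKM by 24 h, with no passing change. Mmp14, a membrane protease known to cleave GFRAL, had 6.81 and 9.58 FPKM at 24 h, against 4.68 and 5.37 FPKM in control, and missed the threshold (0.60 ± 0.18, limma adjusted p = 0.0529). Of the 15 genes of receptor and processing, 7 were tested. No member passed at 6 h in limma (2 were lower at an unadjusted p under 0.05), when 1.01% of all genes passed. At 24 h the GDNF-family ligand Nrtn passed higher and the convertase Pcsk6 lower, beside 21% and 4.3% of all genes. Nrtn lost its call with both other scalings, and Pcsk6 when any 1 of the 6 libraries was left out.

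The wider TGF-beta and SMAD pathway, through which most other ligands of the superfamily act, had no member that passed at 6 h. Only 1.01% of all genes tested passed at that time, so a list this short may have none. Of 30 genes, 24 were tested with limma (at 6 h, 1 lower at an unadjusted p under 0.05), with a median of -0.01. The target genes Id1 and Id3 had 1.94 and 3.58 FPKM and 2.68 and 3.34 FPKM at 6 h, against 1.48 and 1.99 FPKM and 4.17 and 5.41 FPKM in control. At 24 h, 10 of 24 passed, all higher, beside 21% of all genes, and with the other scalings the split was 2 higher and 1 lower, or 1 higher.

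Gdf15 was set beside 32 other secreted stress factors, of which 17 were tested. Lcn2 was the 1 that passed at 6 h, when 0.694% of all genes passed higher (1.36 ± 0.09, limma adjusted p = 0.00331). Its call was lost without either 6 h library. Cxcl1, a neutrophil chemokine, had 0.695 and 1.17 FPKM at 6 h, against 0.427 and 0.178 FPKM in control, and Igfbp4, which binds insulin-like growth factors, had 12.8 and 16.2 FPKM at 6 h, against 19.4 and 25.3 FPKM in control. Neither passed (limma adjusted p = 0.624 and 0.228). Fgf21, a stress hormone of liver that like Gdf15 acts on the brain, was listed at 0 in all 6 libraries. At 24 h, 9 of 17 passed higher and 1 lower, beside 21% and 4.3% of all genes, and with the other scalings 6 or 4 passed higher and 1 lower. The chemokine Cxcl12, chosen here after its values were seen, showed the reverse timing of Gdf15, with 2.18 and 2.63 FPKM in control glands, 1.77 and 1.75 FPKM by 6 h and 21.1 and 26.4 FPKM by 24 h.

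The genes around Gdf15 had much smaller log2 fold changes than Gdf15. On the side of its start, Pgpep1, a pyroglutamyl peptidase, lies across a gap of 13979 nt and had 10.8 and 10.9 FPKM at 6 h, against 5.88 and 5.46 FPKM in control. The groups did not overlap, as in 44.3% of all genes tested, and the change of 0.83 ± 0.14 did not pass (limma adjusted p = 0.0725). At 24 h Pgpep1 had 13.5 and 10.2 FPKM and passed (0.93 ± 0.14, limma adjusted p = 0.0062), and the call held in 16 of 16 alternative settings. On the other side, Lrrc25, a leucine-rich repeat gene of myeloid cells, was at 2.23 and 2.46 FPKM in control glands, 1.94 and 1.249 FPKM by 6 h and 4.66 and 5.17 FPKM by 24 h. Its 24 h change (0.82 ± 0.17, limma adjusted p = 0.0169) lost its call with both other scalings. Ssbp4, Isyna1, Lsm4 and the AP-1 gene Jund had log2 fold changes of -0.20 to 0.09 at 6 h and -0.23 to 0.33 at 24 h, and did not pass against control.

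**Figure D5:**
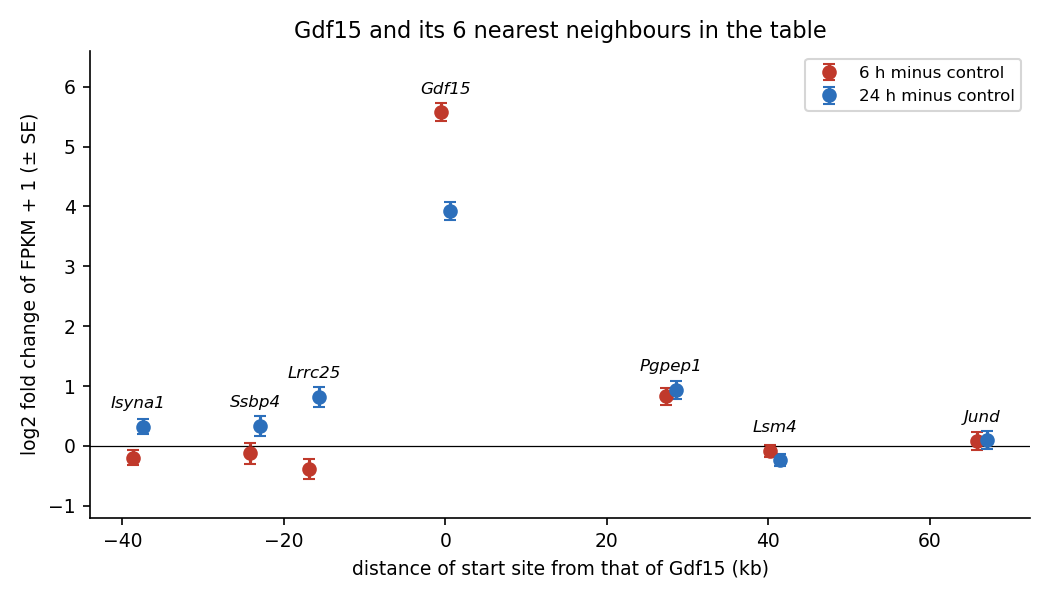
Log2 fold change of FPKM + 1 (± SE) at 6 h minus control (red) and 24 h minus control (blue) for Gdf15 and the 3 nearest genes of the table on either side, against the distance of each start site from that of Gdf15 in kb. Gdf15 stands at 5.57 and 3.92, and the next highest gene is Pgpep1 at 0.83 and 0.93.

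Markers of other cell types were summed beside Gdf15. In bulk RNA, fewer cells of a type and less RNA per cell cannot be told apart. The 15 macrophage and monocyte markers summed to 345 and 359 FPKM in control glands, 257 and 315 FPKM by 6 h and 886 and 1040 FPKM by 24 h. At 6 h, when Gdf15 was highest, both sums were below both control sums. In limma, 1 of 15 markers passed higher, Cd14, and 1 lower, Mrc1, beside 0.694% and 0.317% of all genes. At 24 h, when Gdf15 was lower, 11 of 15 passed higher, beside 21% of all genes, and 7 of 15 with either of the other scalings. The T and NK cell markers in the table summed to 17.8 and 16.9 FPKM in control glands, 7.70 and 8.04 FPKM by 6 h and 37.3 and 47.2 FPKM by 24 h. Of 8 tested, 4 passed higher at 24 h, beside 21% of all genes, and 3 did so with either of the other scalings. Of 11 markers of the granular convoluted tubule, a duct segment of this gland, 3 passed higher and 6 lower at 24 h. The shares of all genes were 21% and 4.3%. With the other scalings the split was 2 higher and 6 lower or 2 higher and 2 lower. The 3 higher calls included Ren1 and Klk1b26, which were under 0.2 FPKM in every control and 6 h library and so get no fold change here. Of 4 tested skeletal muscle markers, 3 passed higher at 24 h, beside 21% of all genes, and 2 did so with either of the other scalings. The 3 tested epidermal markers all passed higher at 24 h, beside the same 21%, and 2 of 3 did so with median-of-ratios scaling. Among them Lor was under 0.2 FPKM in every control and 6 h library and so gets no fold change here. Their 24 h values were much higher in replicate 2, at 4.13 and 54.1 FPKM for Krt1, 10.7 and 129 FPKM for Krt10, and 2.18 and 16.5 FPKM for Lor. The part of these shifts in the 24 h level of Gdf15 was not tested.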

How the data were processed

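RNA from 6 libraries was measured by sequencing. Per the submitters' processing notes, reads were handled with TopHat2 2.1.0 and Cufflinks 2.2.1 on mm10. The authors deposited FPKM per gene symbol. The reason for the different form of the 24 h columns is not stated in the sources used. From 24421 entries, 27 whose symbols had become dates were left out. Samples were grouped by their labels.

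From the deposited FPKM, log2(FPKM + 1) was fitted with limma 3.58.1 in R 4.3.3 for the 11674 genes whose mean reached 1 FPKM. The fit had 1 mean per group, 3 residual degrees of freedom and a mean-variance trend, and gave two-sided p-values adjusted by Benjamini-Hochberg per comparison with a threshold of 0.05. The fit was tested on simulated data. The 6 h and 24 h comparisons share the control libraries. Whole-read steps gave reads in control and 6 h columns. Positions came from GENCODE M21 (GRCm38) and promoter windows from RefSeq.

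Genes were named by rule: Gdf15, the 4 tested members per list with the largest absolute 6 h change, all receptor, processing and upstream factor genes, up to 4 neighbours in rank on each side, 5 nearest profiles by each measure and 3 genomic neighbours per side. A gene under 0.2 FPKM throughout either form of columns got no fold. The gene and the lists were chosen with earlier results of these data known. Alternatives were 2 scalings, pseudocounts of 0.1 and 0.5, other filters, variance settings, a replicate block and leaving out each library.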

Additional observations from a re-analysis of the deposited data

How the results depend on the processing

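Gdf15 kept its direction and its call in 16 of 16 alternative settings in each comparison. Leaving out both control replicate 1 and 24 h replicate 2, a choice made after seeing the data, gave a 6 h change of 5.525 on the log2 scale that no longer passed (limma adjusted p = 0.118). The replicate block left it at 5.57, 3.92 and -1.65 (limma adjusted p = 0.000323, 8.34e-05 and 0.00102), with 104, 3001 and 3351 genes passing at 6 h, at 24 h and between them. The labels do not say that numbers pair the samples, and same-numbered deviations correlated at 0.466, 0.311 and 0.167 over 11674 genes.

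Counts of passing genes moved more. At 6 h they were 118, against 68 with no filter, 31 with only the 2 groups compared and 12 to 63 with 1 library left out. At 24 h they were 2953, against 1929 with quantile scaling and 1262 to 2358 with 1 library left out, and between 24 h and 6 h 3237, against 1413 to 3293. With both doubted libraries left out they were 0 (1270 at an unadjusted p under 0.05), 512 and 1013. The rank of Gdf15 by 6 h change was 1 with a pseudocount of 0.1 and with both libraries left out, and 1 to 11 with 1 left out. By 24 h change it was 70 with a pseudocount of 0.1 and 34 to 68 with 1 library left out. Counted from the highest change between 24 h and 6 h it was 11474 of 11674, against 6887 of 6981 genes at a mean of 5 FPKM or more, 18053 of 18253 with no filter, and 11306 to 11576 with 1 library left out, where more or fewer genes tested set the scale. The cause of the other moves was not tested. With 6 and 7 control reads, depth limits the size of the 6 h fold and not the order of the 6 h and control groups. No depth is known at 24 h, so the same cannot be said there.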
